A study of Homo sapiens with 8 samples.

Results

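The JmjC histone demethylases are enzymes that take methyl groups off lysines of histone tails, and 10 of their genes (KDM2A, KDM2B, KDM3A, KDM3B, KDM4A, KDM4B, KDM4C, KDM5A, KDM5B and KDM6B) are described here in the renal cell carcinoma (RCC) line 786-O. The genes were chosen by name, with earlier results of these data known. Each was represented by the array's transcript cluster, a set of probes along 1 gene, that carried its symbol alone, and all 10 were measured, out of 18417 genes with such a cluster and 33297 transcript clusters in all. The arrays held total RNA of VHL+ cells under hypoxia, VHL+ cells under normoxia, VHL- cells under hypoxia and VHL- cells under normoxia, with 2 biological replicates, as the labels call them, in each of the 4 groups (8 arrays). Every culture was of 786-O, an RCC line without functional VHL, incubated for 24 h, with hypoxia being 1% O2 according to the methods. VHL+ cells are 786-O cells stably transfected with VHL, whereas the VHL- cells of these arrays are labelled as not transfected. An effect of VHL therefore cannot be told apart from an effect of transfection and selection. The question the design asks of these genes is whether their mRNA depended on VHL, on oxygen, or on both.

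JmjC demethylases use molecular oxygen, ferrous iron and 2-oxoglutarate to hydroxylate the methyl group, which then leaves as formaldehyde. They share this chemistry with the prolyl hydroxylases that mark the HIFα subunits for recognition by VHL and its ubiquitin ligase, so that loss of VHL in RCC leaves HIFα stable also in the presence of oxygen. Members differ in the lysine they act on: KDM2A and KDM2B on lysine 36 of histone H3, KDM3A and KDM3B on lysine 9, KDM4A to KDM4C on lysines 9 and 36, KDM5A and KDM5B on lysine 4, and KDM6B on lysine 27. KDM3A, KDM4B and KDM4C are known from other cells as genes that HIF or hypoxia can induce.

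The HIF heterodimer binds DNA at a core of ACGTG or GCGTG. The following sequences are the 250 bases before an annotated start of 4 genes. KDM5B and KDM5A are shown because they had the largest differences between VHL+ and VHL- cells under hypoxia. KDM3A and KDM4B are known hypoxia-inducible members that are set beside them. Capitals mark either core on either strand. The reverse complement of GCGTG reads CACGC. That of ACGTG reads CACGT.
KDM5B: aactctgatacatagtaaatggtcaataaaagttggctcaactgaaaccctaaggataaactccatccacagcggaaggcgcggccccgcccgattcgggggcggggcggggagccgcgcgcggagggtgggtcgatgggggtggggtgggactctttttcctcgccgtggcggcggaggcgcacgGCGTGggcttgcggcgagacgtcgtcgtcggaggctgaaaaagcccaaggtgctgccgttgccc
KDM5A: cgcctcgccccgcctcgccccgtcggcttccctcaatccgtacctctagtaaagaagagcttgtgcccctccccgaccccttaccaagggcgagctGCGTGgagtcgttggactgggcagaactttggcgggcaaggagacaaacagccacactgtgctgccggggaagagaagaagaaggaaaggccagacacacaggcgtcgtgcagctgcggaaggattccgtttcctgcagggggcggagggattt
KDM3A: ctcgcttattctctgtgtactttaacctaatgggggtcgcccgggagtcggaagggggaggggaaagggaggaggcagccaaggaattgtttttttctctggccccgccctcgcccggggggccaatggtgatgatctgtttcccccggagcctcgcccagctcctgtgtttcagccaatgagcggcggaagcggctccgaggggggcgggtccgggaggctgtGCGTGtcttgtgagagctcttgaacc
KDM4B: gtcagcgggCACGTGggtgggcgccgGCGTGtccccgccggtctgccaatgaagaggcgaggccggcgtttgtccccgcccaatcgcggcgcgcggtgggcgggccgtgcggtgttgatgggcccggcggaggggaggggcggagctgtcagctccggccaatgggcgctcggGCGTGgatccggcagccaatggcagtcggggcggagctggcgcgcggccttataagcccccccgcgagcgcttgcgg
The windows were taken from RefSeq on GRCh38.p14 at chr1:202808422-202808671 on the minus strand for KDM5B, chr12:389321-389570 on the minus strand for KDM5A, chr2:86441121-86441370 on the plus strand for KDM3A and chr19:4968863-4969112 on the plus strand for KDM4B, and each ends at the base before the start of the transcript. KDM5B had a single GCGTG, 64 bases before its start, in a window with 64% G and C and 27 CpG dinucleotides. KDM5A had a single GCGTG, 154 bases before its start. KDM3A had a single one, 26 bases before the start shown and 116 bases before its other annotated start. KDM4B had 36 CpG dinucleotides and the most cores of the 4, with GCGTG at 224 and 77 bases before its start and a palindromic CACGTG, which holds ACGTG on both strands, at 241 bases. Over the full windows of the reference table, from 250 bases before to 50 after a start, GCGTG was present on either strand in 12 of the 16 windows of the 10 genes (75%) and in 12832 of all 35116 windows (36.5%). ACGTG was present in 3 of 16 (18.8%) and in 7518 of 35116 (21.4%). The 16 windows are not separate counts: KDM2B has 4 of them, and the 2 of KDM3A overlap and share 1 GCGTG. The G and C content of the 35116 windows was not compared, and a difference of the shares was not tested. The only window of KDM3B held neither core, and a match is a description of letters, not of a bound site.

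The deposited values were log2 signals after RMA, and all 80 values of the 10 genes lay above the median of their array. VHL itself had signals of 9.08 and 9.16 in VHL+ cells under hypoxia and 8.85 and 8.86 in VHL+ cells under normoxia, against 8.23 and 8.51 in VHL- cells under hypoxia and 8.24 and 8.43 in VHL- cells under normoxia, so the cell types did not overlap. Of 19 measured HIF target genes, 6 were higher and none lower under hypoxia in VHL+ cells, 1 was higher under hypoxia in VHL- cells, and under normoxia 12 were lower in VHL+ cells when compared to VHL- cells, with none higher (limma, adjusted p under 0.05). The matching shares of all clusters were 0.15% higher with hypoxia in VHL+ cells, 0.021% higher in VHL- cells, and 2.69% lower under normoxia in VHL+ cells. After quantile normalization the counts of HIF target genes were 1, 0 and 10 in the same order. Under hypoxia 5 of the 19 were lower in VHL+ than in VHL- cells, with none higher, and 4 after quantile normalization (1.31% and 2.74% of all clusters lower). HIF1A mRNA was lower in VHL+ cells under hypoxia (log2 fold change -2.02) and normoxia (-1.95), with a limma adjusted p under 0.05 in both. EPAS1 (HIF2α) was lower under normoxia (-0.77) and did not pass under hypoxia (-0.34). Of 9 measured markers of renal tubule and RCC, 6 (PAX8, PAX2, CDH6, KRT8, KRT18 and VIM) were above the array's median on all 8 arrays, while LRP2 and CUBN, the endocytic receptors of the proximal tubule, were below it on all 8. Of 10 markers of blood, endothelial, liver, stromal and glial cells, 9 were below the median on all 8 arrays, and their summed log2 signal ran from 59.9 to 62.8 in VHL+ cells under hypoxia, 60.5 to 61.3 in VHL+ cells under normoxia, 59.0 to 60.3 in VHL- cells under hypoxia and 61.1 to 61.4 in VHL- cells under normoxia. The part of these markers in the results was not tested. The arrays were not level: the highest median was 6.91, in replicate 1 of VHL+ cells under hypoxia, and the lowest 6.60, in replicate 1 of VHL- cells under hypoxia. Each comparison is therefore given for the deposited values and, where it matters, after a quantile normalization that gives all arrays the same distribution.

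**Figure D1:**
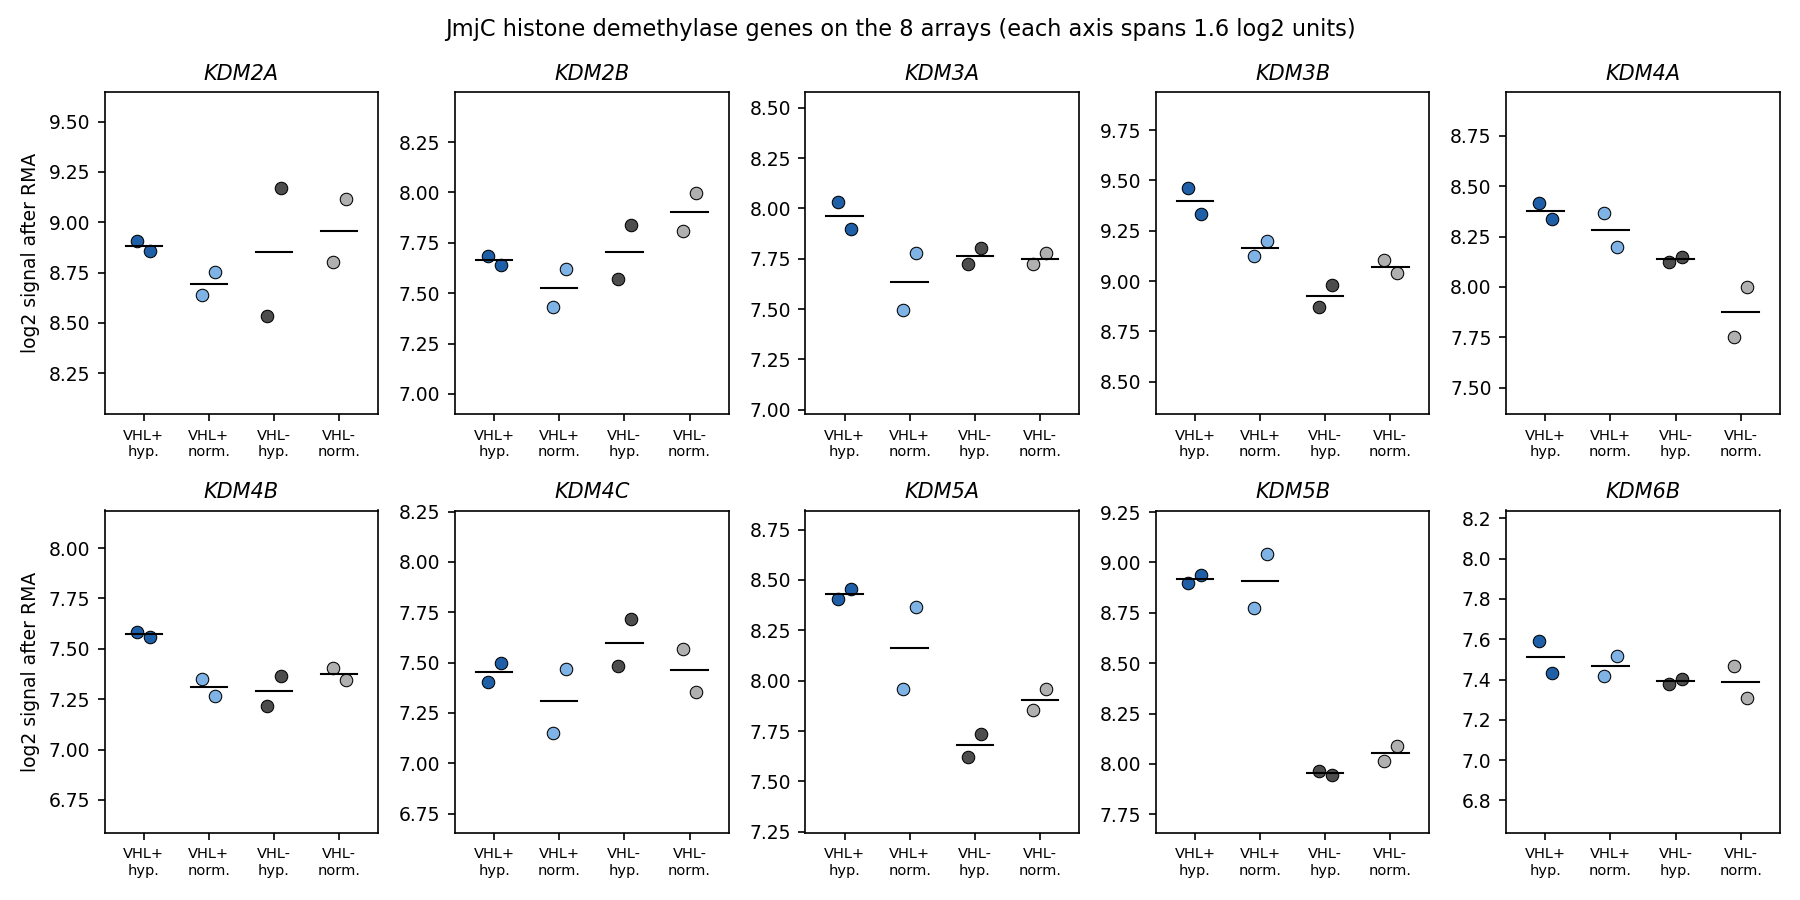
Deposited log2 signal (y axis) of each of the 10 genes on the 8 arrays, by group (x axis: VHL+ under hypoxia and normoxia, then VHL- under hypoxia and normoxia); points are arrays, bars are means of 2, and every axis spans the same range of log2 units. KDM5B lies between 8.77 and 9.04 on the 4 arrays of VHL+ cells and between 7.94 and 8.09 on the 4 arrays of VHL- cells.

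KDM5B was the gene of the 10 that separated VHL+ from VHL- cells most clearly. Under hypoxia, 3 of the 10 genes (KDM3B, KDM5A and KDM5B) were higher in VHL+ cells when compared to VHL- cells, with none lower (limma, adjusted p under 0.05), where 11.6% of all clusters passed, 10.3% of all as higher. Under normoxia only KDM5B passed, as higher, where 4.77% of all clusters passed and 2.07% were higher. Over both oxygen conditions, with the 4 arrays of VHL+ cells set against the 4 of VHL- cells, KDM4A, KDM5A and KDM5B were higher, with none lower, where 14.3% of all clusters passed and 10.6% were higher. After quantile normalization the genes that passed were KDM5A and KDM5B under hypoxia (5.5% of all clusters), KDM5B and, as lower, KDM2B under normoxia (5.42%), and these 3 genes over both conditions (16%). The median log2 fold change of the 10 genes was 0.22 under hypoxia and 0.01 under normoxia (-0.04 and 0.02 after quantile normalization, so that the sign turned under hypoxia), against medians of all clusters of 0.16 under hypoxia and -0.04 under normoxia (0.00143 and 0.00414 after quantile normalization). Under hypoxia, 8 of the 10 genes were above 0 (86.4% of all clusters) and 7, all but KDM2A, KDM2B and KDM4C, were higher without overlap of the arrays (46.4%). After quantile normalization 4 were above 0 there (50.5%), KDM3B, KDM4B, KDM5A and KDM5B were higher without overlap (24.7%), and KDM2A, KDM2B, KDM4C and KDM6B were lower without overlap (23.9%). Under normoxia, 5 were above 0 (37.4%), KDM3B, KDM4A, KDM5A and KDM5B were higher without overlap (14.2%), and KDM2A and KDM2B were lower without overlap (26.2%). On all 4 arrays of VHL+ cells KDM3B, KDM4A, KDM5A and KDM5B lay above all 4 of VHL- cells, as did 10.1% of all clusters. After quantile normalization this held for KDM5A and KDM5B (10%), and KDM2B lay below on all arrays (9.12%).

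**Figure D2:**
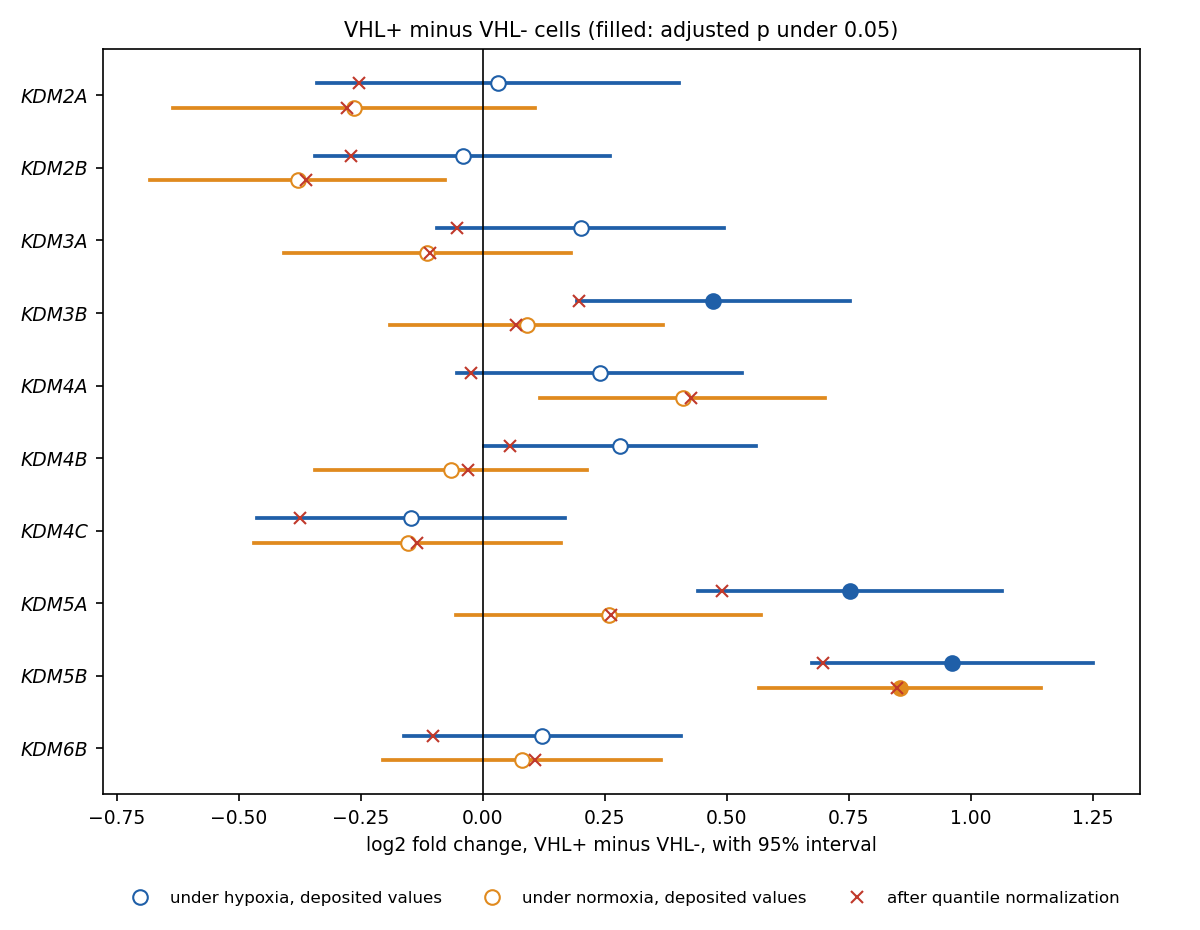
Log2 fold change of VHL+ vs. VHL- cells (x axis, VHL+ minus VHL-) for each gene (y axis) under hypoxia (blue) and normoxia (orange), with the 95% interval of the limma fit; filled points passed an adjusted p of 0.05 and red crosses give the value after quantile normalization. KDM5B passed under both conditions, with 0.96 under hypoxia and 0.86 under normoxia, and the crosses under hypoxia lie to the left of the points for all 10 genes.

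KDM5A and KDM5B remove di- and trimethylation from lysine 4 of histone H3, a mark of active promoters. KDM5B (transcript cluster 7923453) had log2 signals of 8.90 and 8.94 in VHL+ cells under hypoxia, against 7.97 and 7.94 in VHL- cells under hypoxia. The signals under normoxia were 8.77 and 9.04 in VHL+ cells, against 8.01 and 8.09 in VHL- cells. The lowest array of VHL+ cells lay well above the highest of VHL- cells, and within either cell type the arrays under hypoxia and under normoxia were close. VHL+ cells exceeded VHL- cells by 0.96 on the log2 scale (SE 0.14, 95% interval 0.67 to 1.25, 1.95-fold, limma adjusted p = 0.000182) under hypoxia and 0.86 (SE 0.14, interval 0.57 to 1.14, 1.81-fold, adjusted p = 0.000808) under normoxia. Over both conditions it was 0.91 (SE 0.10, 1.88-fold, limma adjusted p = 3.92e-07). After quantile normalization the log2 fold changes were 0.70 (adjusted p = 0.00821) under hypoxia and 0.85 (adjusted p = 0.00465) under normoxia. The call under hypoxia held in all 16 alternative limma fits, with log2 fold changes of 0.70 to 0.98. That under normoxia held in 15 and was lost, with an adjusted p of 0.0584, in a fit to the compared arrays alone. Among the 16 is the mean of a gene's clusters, which could not differ from the main fit because each of the 10 genes had 1 cluster. With the replicate block (SE 0.16), and under hypoxia with the compared arrays alone (SE 0.17), all 10 genes had the same SE. Those fits therefore did not use the spread of KDM5B itself. The methods' one-way test called KDM5B under hypoxia at its unadjusted threshold but not after Benjamini-Hochberg adjustment, and under normoxia by neither.

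KDM5A (transcript cluster 7960221) had log2 signals of 8.41 and 8.46 in VHL+ cells under hypoxia, against 7.62 and 7.74 in VHL- cells under hypoxia. Normoxia gave 7.96 and 8.37 in VHL+ cells, against 7.85 and 7.96 in VHL- cells. The groups were far apart under hypoxia, whereas under normoxia replicate 1 of VHL+ cells lay beside the higher array of VHL- cells. The log2 difference of VHL+ minus VHL- cells was 0.75 (SE 0.15, interval 0.44 to 1.06, limma adjusted p = 0.00295) under hypoxia and 0.49 there after quantile normalization (adjusted p = 0.0263). Under normoxia it was 0.26 (interval -0.05 to 0.57, adjusted p = 0.551), and over both conditions 0.51 (SE 0.12, adjusted p = 0.00348). The call under hypoxia was lost with median centring of the arrays (adjusted p = 0.0600) and without replicate 1 (0.111) or replicate 2 (0.0880) of VHL+ cells under hypoxia, and that over both conditions was lost without replicate 1 (0.0912).

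KDM3A and KDM3B remove mono- and dimethylation from lysine 9 of histone H3, a mark of repressed chromatin. KDM3B (transcript cluster 8108330) had log2 signals of 9.46 and 9.33 in VHL+ cells under hypoxia, against 8.87 and 8.98 in VHL- cells under hypoxia. Its signals under normoxia were 9.12 and 9.20 in VHL+ cells, against 9.10 and 9.04 in VHL- cells. The groups did not overlap under either condition, but under normoxia the gap between them was within the spread of a single group. The log2 difference of VHL+ minus VHL- cells was 0.47 (SE 0.13, interval 0.19 to 0.75, limma adjusted p = 0.0269) under hypoxia, 0.09 (interval -0.19 to 0.37) under normoxia and 0.28 (adjusted p = 0.0877) over both. Over both conditions it passed with median centring (0.22, adjusted p = 0.0200) and without replicate 1 of VHL+ cells under normoxia (adjusted p = 0.0328). After quantile normalization the value under hypoxia was 0.20 (adjusted p = 0.277). The call held in 8 of 16 alternative limma fits, counting the mean of a gene's clusters, which could not differ here. It was also lost in a fit to the compared arrays alone (adjusted p = 0.0534), with a trend and robust estimation (0.0765), without replicate 1 (0.184) or 2 (0.0760) of VHL+ cells under hypoxia, without replicate 1 of VHL- cells under hypoxia (0.210), and without either replicate of VHL- cells under normoxia (0.0523 each).

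KDM3A (transcript cluster 8043283) had log2 signals of 8.03 and 7.90 in VHL+ cells under hypoxia, against 7.50 and 7.78 in VHL+ cells under normoxia. In VHL- cells it had 7.72 and 7.80 under hypoxia, against 7.72 and 7.78 under normoxia. On the deposited scale the arrays of VHL- cells were thus nearly level, and those of VHL+ cells were split by oxygen without overlap. In VHL+ cells the log2 fold change with hypoxia was 0.33 (SE 0.14, interval 0.03 to 0.62, 1.25-fold), with an unadjusted p of 0.0317 in limma but an adjusted p of 0.737, and it was 0.17 after quantile normalization. In VHL- cells it was 0.01 (interval -0.28 to 0.31), and 0.12 after quantile normalization. The interaction of VHL and hypoxia for KDM3A was 0.31 for the deposited values and 0.06 after quantile normalization, and passed in neither. After quantile normalization all arrays under hypoxia lay above all arrays under normoxia over both cell types, as did 1.53% of all clusters, without a call (limma adjusted p = 0.401). For the deposited values, VHL+ cells under hypoxia had the highest mean of the 4 groups and VHL+ cells under normoxia the lowest. On that scale neither mean of VHL- cells differed from the other beyond its spread.

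KDM4A, KDM4B and KDM4C act on trimethylated lysines 9 and 36 of histone H3. KDM4A (transcript cluster 7900833) had log2 signals of 8.42, 8.34, 8.37 and 8.20 in VHL+ cells, with hypoxia first, against 8.13, 8.15, 7.75 and 7.998 in VHL- cells in the same order. Every array of VHL+ cells lay above every array of VHL- cells, the lowest level being that of VHL- cells under normoxia. Over both conditions VHL+ cells lay above VHL- cells by a log2 difference of 0.32 (SE 0.10, interval 0.11 to 0.54, limma adjusted p = 0.0359), with 0.41 (adjusted p = 0.121) under normoxia and 0.24 (adjusted p = 0.316) under hypoxia alone, the value under hypoxia being -0.03 after quantile normalization. This call was lost after quantile normalization (0.20, adjusted p = 0.360) and median centring (adjusted p = 0.157), with a trend and robust estimation (adjusted p = 0.0923) and without each array in turn except replicate 1 of VHL- cells under hypoxia, with adjusted p values between 0.0555 and 0.191 in those 7 fits.

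KDM4B (transcript cluster 8024909) had log2 signals of 7.58 and 7.56 in VHL+ cells under hypoxia, against 7.35 and 7.27 in VHL+ cells under normoxia. In VHL- cells it had 7.22 and 7.36 under hypoxia, against 7.40 and 7.35 under normoxia. VHL+ cells under hypoxia stood above the 6 other arrays, and the means of the 3 other groups differed by less than the largest of their SDs, 0.10. No comparison passed for KDM4B: its log2 fold change was 0.26 (interval -0.02 to 0.54, limma adjusted p = 0.843) with hypoxia in VHL+ cells and 0.28 (interval 0.00 to 0.56, adjusted p = 0.204) between VHL+ and VHL- cells under hypoxia, and after quantile normalization 0.11 and 0.06. KDM4C (transcript cluster 8154333) had 7.41 and 7.50 in VHL+ cells under hypoxia and 7.15 and 7.47 in VHL+ cells under normoxia, against 7.48 and 7.71 in VHL- cells under hypoxia and 7.57 and 7.36 in VHL- cells under normoxia. All 4 groups of KDM4C overlapped with a neighbour in order of level. Its log2 fold change with hypoxia was 0.14 in VHL+ cells (interval -0.17 to 0.46) and 0.14 in VHL- cells (interval -0.18 to 0.45).

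KDM2A and KDM2B bind unmethylated CpG islands and remove lower methylation states of lysine 36, and KDM2B brings the Polycomb complex PRC1.1 to such islands. KDM2B (transcript cluster 7967175) had log2 signals of 7.43 and 7.62 in VHL+ cells under normoxia, against 7.81 and 7.999 in VHL- cells under normoxia. The signals under hypoxia were 7.68 and 7.64 in VHL+ cells, against 7.57 and 7.84 in VHL- cells. The groups were thus apart under normoxia and overlapped under hypoxia. The log2 difference of VHL+ minus VHL- cells under normoxia was -0.38 (SE 0.14, interval -0.68 to -0.08, limma adjusted p = 0.184) for the deposited values and -0.36 after quantile normalization, where it passed (adjusted p = 0.0497). Over both conditions it was -0.21 (adjusted p = 0.281), -0.27 with median centring (adjusted p = 0.0431) and -0.32 after quantile normalization (adjusted p = 0.00624). KDM2A (transcript cluster 7941769) had 8.91 and 8.86 in VHL+ cells under hypoxia and 8.64 and 8.75 in VHL+ cells under normoxia, against 8.53 and 9.17 in VHL- cells under hypoxia and 8.80 and 9.12 in VHL- cells under normoxia. Replicate 2 of VHL- cells was the highest array under either condition, and the SD of KDM2A in VHL- cells under hypoxia was 0.45 (n = 2). No comparison of KDM2A passed, with a log2 fold change in VHL+ cells of -0.26 (interval -0.63 to 0.11) under normoxia and 0.03 (interval -0.34 to 0.40) under hypoxia, where it was -0.25 after quantile normalization. Of 7 measured partners of KDM2B in PRC1.1, RING1, a ubiquitin ligase for histone H2A, was lower in VHL+ cells under normoxia (log2 fold change -0.67, adjusted p = 0.00822, 0.0263 after quantile normalization). BCORL1, a corepressor, was higher in VHL+ cells under hypoxia (log2 fold change 0.78, adjusted p = 0.00219, 0.0375 after quantile normalization). No other partner passed within an oxygen condition or with hypoxia.

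KDM6B removes methylation of lysine 27 of histone H3, the mark of Polycomb repression. KDM6B (transcript cluster 8004671) passed in no comparison. Its log2 signals were 7.59 and 7.43 in VHL+ cells under hypoxia and 7.42 and 7.52 in VHL+ cells under normoxia, against 7.38 and 7.40 in VHL- cells under hypoxia and 7.47 and 7.31 in VHL- cells under normoxia. Neighbouring means in the order of the 4 groups differed by less than the largest SD of a group, 0.11. The log2 fold changes with VHL were 0.12 (interval -0.16 to 0.41) under hypoxia and 0.08 (interval -0.20 to 0.37) under normoxia, and those with hypoxia 0.05 (interval -0.24 to 0.33) in VHL+ cells and 0.00 (interval -0.28 to 0.29) in VHL- cells. After quantile normalization the values were -0.10 and 0.11 with VHL and -0.10 and 0.11 with hypoxia, in the same order.

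No JmjC demethylase gene of the 10 passed in a comparison of hypoxia with normoxia. This was the case in VHL+ cells, where 0.153% of all clusters passed, in VHL- cells (0.0661%) and over both cell types (0.171%), and also under every alternative run. With an unadjusted p under 0.05, KDM3A alone passed in VHL+ cells (2052 clusters in all, 6.16%), none of the 10 in VHL- cells (1765 clusters, 5.3%) and none over both cell types (1649 clusters, 4.95%). In VHL+ cells all 10 log2 fold changes were above 0 and 6 genes (KDM2A, KDM2B, KDM3A, KDM3B, KDM4B and KDM5A) were higher under hypoxia without overlap of the arrays, where 78.3% of all clusters were above 0 and 28% were higher without overlap. After quantile normalization 6 of 10 were above 0 (51.3% of all clusters), KDM3A alone was higher without overlap (17.5%), and KDM5B and KDM6B were lower without overlap (16.5%). In VHL- cells 4 of 10 were above 0 (13.9% of all clusters), KDM4A was higher without overlap (2.47%) and KDM3B, KDM5A and KDM5B were lower without overlap (45.5%). After quantile normalization 6 were above 0 in VHL- cells (51.6%), KDM3A, KDM4A and KDM4C were higher without overlap (17.4%), and KDM5A was lower without overlap (15.5%). The median log2 fold change of the 10 genes was 0.17 in VHL+ cells and -0.09 in VHL- cells (0.01 in either after quantile normalization), against medians of all clusters of 0.09 in VHL+ cells and -0.12 in VHL- cells (0.00267 and 0.00380 after quantile normalization). The widest upper limits of the 95% intervals were 0.62 in VHL+ cells, for KDM3A, and 0.55 in VHL- cells, for KDM4A. For the deposited values, larger rises with hypoxia thus lay outside the intervals of all 10 genes. After quantile normalization KDM4A in VHL- cells had a larger log2 fold change, 0.37 (SE 0.14) against 0.26 (SE 0.14). The limits therefore hold for the deposited scale only.

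**Figure D3:**
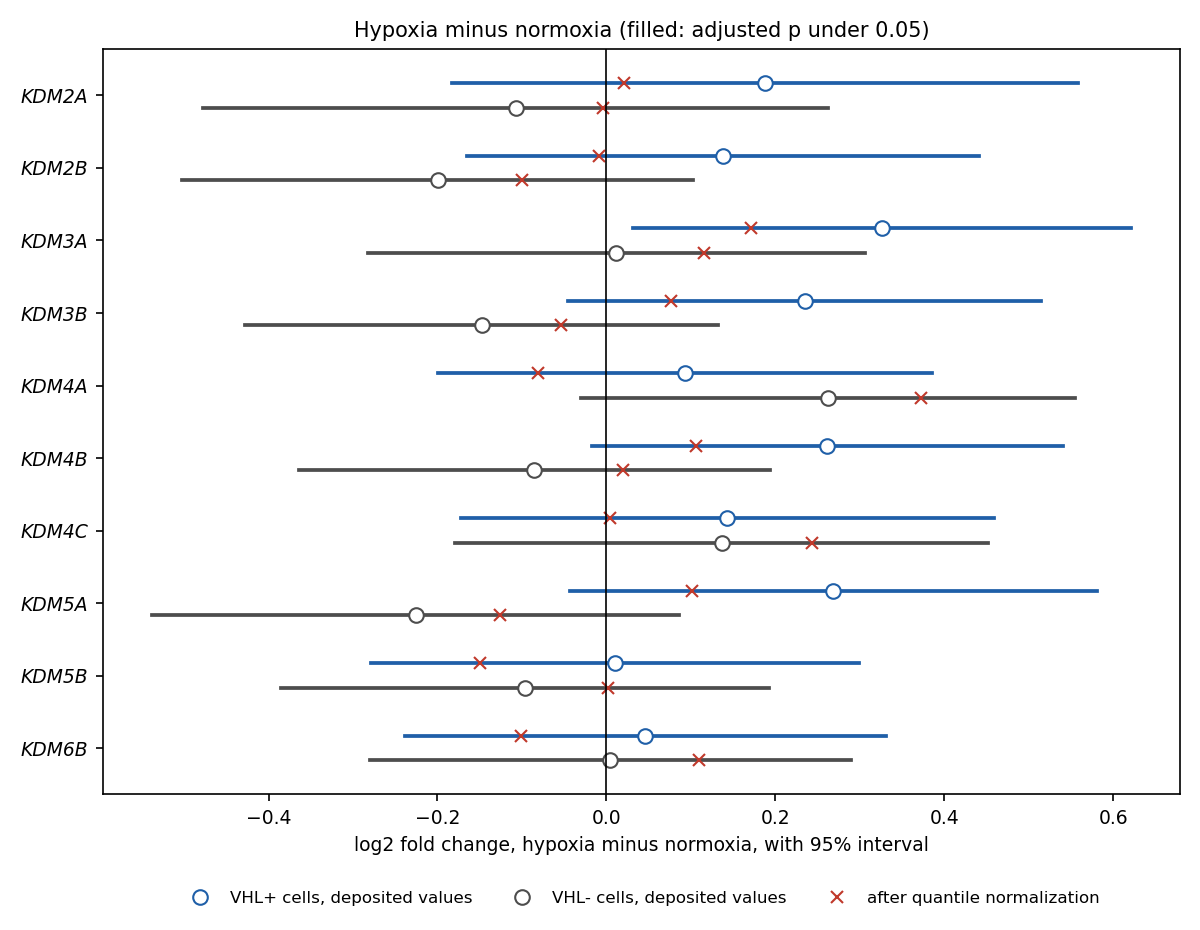
Log2 fold change of hypoxia vs. normoxia (x axis, hypoxia minus normoxia) for each gene (y axis) in VHL+ cells (blue) and VHL- cells (grey), with the 95% interval of the limma fit; open points did not pass an adjusted p of 0.05 and red crosses give the value after quantile normalization. The interval of KDM3A in VHL+ cells, 0.03 to 0.62, is the one that does not include 0, and all 10 blue points lie to the right of 0.

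The effect of hypoxia in VHL+ cells minus that in VHL- cells was tested as an interaction, and none of the 10 genes passed (0.00601% of all clusters did). KDM5A had the largest value, 0.49 (SE 0.21, interval 0.05 to 0.94), with an unadjusted p of 0.0302 and an adjusted p of 0.651 in limma, and was the sole gene of the 10 with an unadjusted p under 0.05, where 5.61% of all clusters had one. Its log2 fold change with hypoxia was 0.27 in VHL+ cells and -0.23 in VHL- cells. The interaction was above 0 for 9 of the 10 genes and for 94% of all clusters, and after quantile normalization for 6 of 10 and for 49.7%. Since KDM3B and KDM5A passed under hypoxia and not under normoxia, and only this test compares the effect between the oxygen conditions, a difference in their VHL effect between hypoxia and normoxia was not shown.

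The genes differed in how far their signal followed the median of all clusters on the array. Over the 8 arrays, Pearson's r between a gene's signal and the array's median was 0.82 for KDM3B, 0.74 for KDM4B, 0.72 for KDM6B, 0.68 for KDM3A and 0.64 for KDM5A. It was 0.41 for KDM5B, 0.38 for KDM2A, 0.29 for KDM2B, 0.12 for KDM4A and 0.03 for KDM4C. These values are descriptions: the 8 arrays share their cell type in blocks of 4, and the part of array level in the calls was tested only as far as the quantile normalization and median centring above show. In the bulk RNA of a culture, fewer cells with a transcript cannot be told apart from less transcript in each cell.

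**Figure D4:**
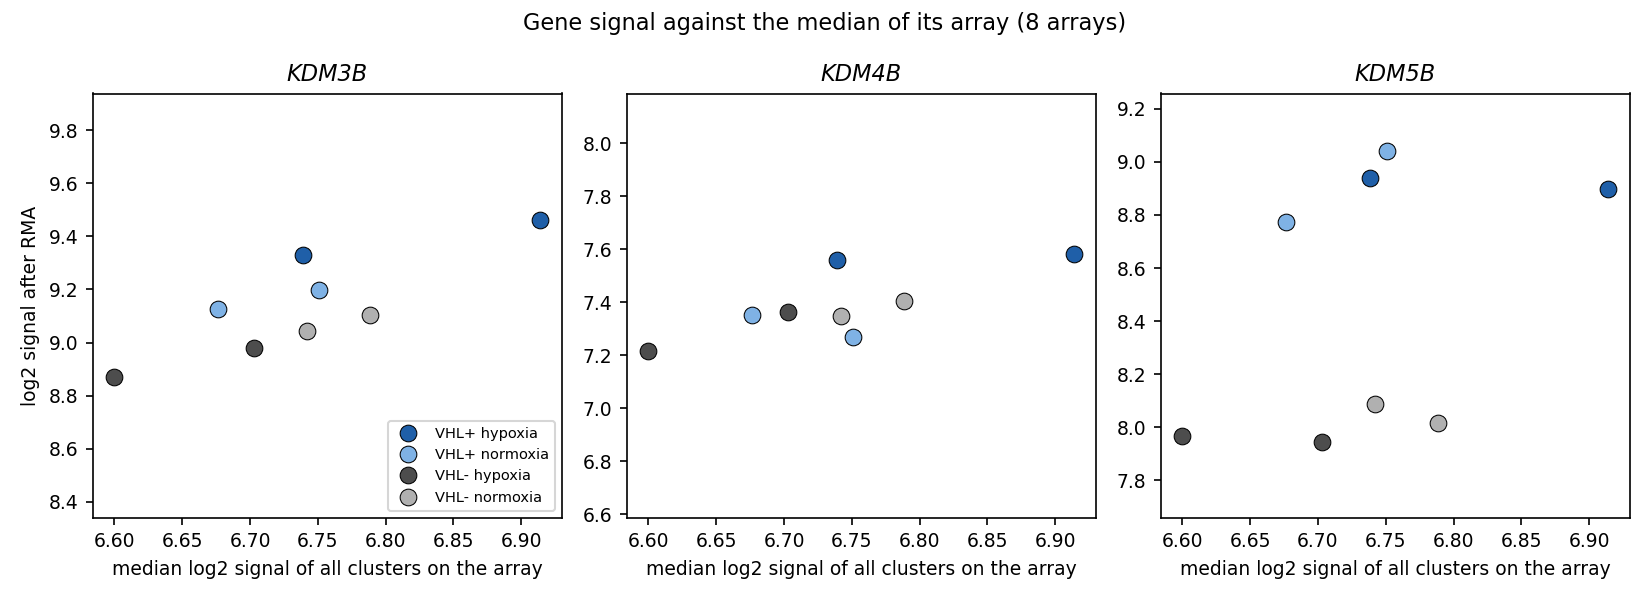
Deposited log2 signal of KDM3B, KDM4B and KDM5B (y axes) against the median log2 signal of all clusters on the same array (x axes), 1 point for each of the 8 arrays, coloured by group. KDM3B and KDM4B are highest on replicate 1 of VHL+ cells under hypoxia, the array with the highest median of 6.91, whereas KDM5B lies in an upper row of 4 arrays of VHL+ cells and a lower row of 4 arrays of VHL- cells.

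Some of the 10 genes had like patterns over the 8 arrays. Pearson's r was 0.90 between KDM5A and KDM5B (0.89 after quantile normalization) and 0.83 between KDM2A and KDM2B (0.82). It was 0.92 between KDM3B and KDM5A and 0.83 between KDM3B and KDM4B, but 0.56 and 0.53 after quantile normalization. KDM2B and KDM5B went opposite ways, with r of -0.55, and -0.91 after quantile normalization. Among all genes outside the 10, those most like KDM5B were MTMR6 (r = 0.997), EDA2R (0.995) and SYK (0.995), and those most like KDM5A were ZBTB26 (0.993), CHMP4B (0.991) and EXT1 (0.990). For KDM3B they were PGS1 (0.997), POMK (0.992) and DCAF4 (0.991), and for KDM4A PDCD4 (0.916), ABLIM1 (0.905) and TMEM268 (0.904). These are the highest of 18417 genes over 8 arrays in 4 groups, and are given as descriptions.

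The other JmjC proteins, 18 measured of 20 listed, held 1 gene whose difference under hypoxia was about the size of that of KDM5A and of opposite sign. JARID2, a JmjC protein without demethylase activity that accompanies the Polycomb complex PRC2, had log2 signals of 7.75 and 7.58 in VHL+ cells under hypoxia, against 8.55 and 8.29 in VHL- cells under hypoxia. Its signals under normoxia were 7.44 and 7.48 in VHL+ cells, against 8.37 and 8.15 in VHL- cells. All arrays of VHL+ cells lay below all arrays of VHL- cells. JARID2 was lower in VHL+ than in VHL- cells under hypoxia (log2 fold change -0.76, SE 0.14, limma adjusted p = 0.00230). It was also lower in VHL+ than in VHL- cells under normoxia (-0.80, SE 0.14, adjusted p = 0.00222). Both differences passed after quantile normalization as well (adjusted p = 0.0183 and 0.0379). JMJD1C, a relative of KDM3A, and TYW5, a tRNA hydroxylase, were higher in VHL+ cells over both oxygen conditions (log2 fold changes of 0.38 and 0.35, limma adjusted p = 0.0319 and 0.0382), JMJD1C not after quantile normalization (adjusted p = 0.300). None of the 18 passed in a comparison of hypoxia with normoxia, and their median log2 fold change was 0.11 with hypoxia in VHL+ cells and -0.11 in VHL- cells.

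Neither of the flavin-dependent demethylases KDM1A and KDM1B, which also use oxygen but no 2-oxoglutarate, and none of the 3 TET genes, which encode oxygen- and 2-oxoglutarate-dependent dioxygenases of methylcytosine in DNA, passed in any comparison. Of 3 measured HIF prolyl hydroxylases, EGLN3, itself a HIF target, was lower in VHL+ than in VHL- cells under normoxia, with log2 signals of 7.55 and 7.51 in VHL+ cells against 8.38 and 8.30 in VHL- cells (log2 fold change -0.81, limma adjusted p = 0.00290, 0.0144 after quantile normalization). Of 19 histone lysine methyltransferases measured, enzymes that add methyl groups to histone lysines, 4 were higher and none lower in VHL+ cells under hypoxia (10.3% of all clusters higher, 1.31% lower), against 1 higher and 2 lower after quantile normalization (2.76% higher, 2.74% lower). SMYD2 was higher under both scalings (log2 fold change 0.70, limma adjusted p = 0.00348, 0.0330 after quantile normalization). KMT2A, a writer of lysine 4 methylation, and DOT1L, the lysine 79 methyltransferase, were higher for the deposited values (log2 fold changes of 0.47 and 0.49, adjusted p = 0.0397 and 0.0437) and did not pass after quantile normalization (adjusted p = 0.603 and 0.418). None of the 19 passed under normoxia or in a comparison of hypoxia with normoxia.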

How the data were processed

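Total RNA of 8 cultures had been hybridized to Affymetrix Human GeneChip 1.0 ST arrays. The authors normalized the arrays by RMA (background correction, normalization and summary of probes) in Partek, of a version not given in the sources used here, and deposited log2 signals per transcript cluster. They had no missing value, and replicates correlated with r between 0.991 and 0.994 across clusters. Gene symbols came from the array's annotation (19460 clusters with 1 symbol, 1754 with several, 12083 with none), and each of the 10 genes had 1 such cluster. All 33297 clusters were tested with limma 3.58.1 in R 4.3.3. Group means were fitted to all arrays (residual degrees of freedom 4, prior 14) and contrasted, and effects over both conditions came from an additive fit with VHL status and oxygen. Adjustment was Benjamini-Hochberg over all clusters, at a threshold of 0.05. p values measure the spread between these arrays, whose number limits the precision. The 10 genes and the other gene lists were chosen with earlier results of these data known. All 10 genes are named, as are up to 3 called genes of each other list in a comparison, by smallest p, and the 3 genes that correlate best with each of the genes called. Alternatives were quantile normalization, median centring, a fit of the compared groups alone, limma with trend and robust settings, and a replicate block. Others were no dim clusters, no clusters without exactly 1 symbol, and the mean of a gene's clusters, which equals the main fit for a gene with 1 cluster. A minimum change of 2-fold, the methods' one-way test, and each array left out were also run. The one-way test was fitted here to the compared arrays alone, and over both conditions without an oxygen term. A one-way ANOVA over all 4 groups, another reading of the methods, was not run. Promoter windows were RefSeq's on GRCh38.p14. The fits were also run on simulated data with planted changes, independent noise and no difference of level between arrays. That run could not test the effect of the unequal array medians. The protein gels and metabolic assays were not analysed here.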

Additional observations from a re-analysis of the deposited data

How the results depend on the processing

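Of 1090 log2 fold changes of the 10 genes under the alternatives, 1062 kept their side of the threshold, 23 no longer passed, 5 newly passed and 0 reversed while called. Among the 1062 are 64 values that passed neither way and changed sign. The number of the 10 genes called in VHL+ vs. VHL- cells under hypoxia, 3 as reported, was 0 with a minimum change of 2-fold, 1 (KDM5B) with the methods' one-way test at an unadjusted p under 0.005 and 0 after Benjamini-Hochberg, and 1 to 3 with 1 array left out. Under normoxia, 1 as reported, it was 2 after quantile normalization (KDM2B and KDM5B) and 0 with the compared groups alone, with a minimum change of 2-fold, and with the methods' one-way test at that p or after Benjamini-Hochberg. Over both conditions, 3 as reported, it was 0 with a minimum change of 2-fold, 1 (KDM5B) with the methods' one-way test at that p and after Benjamini-Hochberg, 4 with median centring (KDM2B, KDM3B, KDM5A and KDM5B), and 1 to 3 with 1 array left out. The array left out that gave 1 was replicate 1 of VHL+ cells under hypoxia in both comparisons, and under hypoxia also replicate 2. For hypoxia vs. normoxia and the interaction it was 0 under all alternatives. The one-way test gave no interaction, and the values for the mean of a gene's clusters, counted among the 1090, could not differ from the main fit. The cause of these changes was not tested.

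Under hypoxia, 3437 clusters were higher and 436 lower in VHL+ cells for the deposited values, against 920 higher and 911 lower after quantile normalization. The number of all clusters called ran from 1 to 5090 over the alternatives under hypoxia (3873 as reported), from 1 to 2551 under normoxia (1587), from 384 to 6125 over both conditions (4770), from 0 to 354 for hypoxia in VHL+ cells (51), from 0 to 282 in VHL- cells (22), from 0 to 328 over both cell types (57) and from 0 to 203 for the interaction (2). Deviations of equally numbered replicates correlated between 0.05 and 0.60 over the 6 pairs of groups, 4 of them above 0.1, and the labels state no shared day or batch behind a number. With the replicate block 4990 clusters were called under hypoxia, 2518 under normoxia, 5313 over both conditions, 336 for hypoxia in VHL+ cells, 220 in VHL- cells, 328 for hypoxia over both cell types and 98 for the interaction, and of the 10 genes 3 under hypoxia, 1 under normoxia and 3 over both conditions. In the fit with the replicate block all 10 genes had the same SE within a comparison, so the spread of the single gene did not enter. With 2 arrays in a group, an array left out leaves a lone array that is taken to vary like the other groups.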
